A study of Mus musculus with 3 samples.

Results

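The antigen receptor of a B cell begins with a variable (V) gene, and the V genes of the kappa light chain (Igkv) and of the heavy chain (Ighv) were followed here through the B cells of the mouse kidney. Of the 345 Igkv and Ighv columns of the gene table, 226 had a count above 0 in at least 1 cell of the clusters B_cell_1, B_cell_2 and B_cell_3, and these 226 genes are the members. They comprise 110 of 160 Igkv columns and 116 of 185 Ighv columns, among 32886 gene columns in all. Kidneys had been dissected into the cortex, the OM (outer medulla) and the IM (inner medulla), and the CD45+ immune cells of each were sequenced singly in droplets at facilities in Aachen, Bonn and Hamburg. The mice were untouched wild-type C57BL/6J males aged 10 weeks, so that the groups differed in compartment and facility and in no treatment or allele. The cells of 1 compartment at 1 facility were treated as 1 library, which gave 9 libraries with 3 per compartment. The labels do not say how many mice were pooled in a library or whether the compartments of a facility came from the same mice, and p-values therefore measure the spread between libraries, which may be technical.

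A B cell assembles its heavy chain gene by joining 1 V, 1 D and 1 J segment and its light chain gene by joining 1 V and 1 J segment, and the promoter of the chosen V segment then drives the transcript. Most mature B cells carry 1 productive heavy and 1 productive light chain, a restriction called allelic exclusion, so the V genes read in a cell mark which segments its receptor was built from, while the joins that tell clones apart are not seen in gene counts. In mice most light chains are kappa. B cells that leave their naive state as plasma cells raise the transcription of the rearranged receptor many times and secrete the product as antibody.

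The last 120 bases are printed for the leading kappa and heavy chain genes, which held the highest mean shares of their loci, and for the genes that the later comparisons turn on. Each sequence is the V exon of the reference strain from the GENCODE M21 transcripts (build GRCm38, equal to mm10), written 5′ to 3′ on the gene's own strand, and capitals mark the codon of the conserved cysteine that ends the framework before the third hypervariable loop. None of them was read from a cell, so mutations and joins made by the cells are not shown.
Igkv1-117: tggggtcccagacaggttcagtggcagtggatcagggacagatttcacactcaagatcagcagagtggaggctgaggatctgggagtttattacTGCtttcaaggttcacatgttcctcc
Ighv1-26: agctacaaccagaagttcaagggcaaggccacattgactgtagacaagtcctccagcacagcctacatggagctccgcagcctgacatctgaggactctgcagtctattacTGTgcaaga
Ighv6-6: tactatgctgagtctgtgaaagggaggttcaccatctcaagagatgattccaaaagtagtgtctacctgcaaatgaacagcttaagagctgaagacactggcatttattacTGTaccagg
Igkv14-100: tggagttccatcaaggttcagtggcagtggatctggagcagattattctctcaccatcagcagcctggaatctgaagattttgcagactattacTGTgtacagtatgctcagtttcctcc
Ighv8-12: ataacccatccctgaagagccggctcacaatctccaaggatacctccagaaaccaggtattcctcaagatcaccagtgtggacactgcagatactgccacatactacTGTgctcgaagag
Igkv6-23: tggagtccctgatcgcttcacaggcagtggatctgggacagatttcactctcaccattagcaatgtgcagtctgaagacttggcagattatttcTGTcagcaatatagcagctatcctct
Ighv1-22: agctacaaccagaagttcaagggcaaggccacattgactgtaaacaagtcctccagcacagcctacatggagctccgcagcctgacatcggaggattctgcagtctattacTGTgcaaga
Igkv6-15: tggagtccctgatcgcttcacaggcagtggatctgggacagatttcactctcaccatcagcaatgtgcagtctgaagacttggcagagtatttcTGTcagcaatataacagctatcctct
Ighv11-2: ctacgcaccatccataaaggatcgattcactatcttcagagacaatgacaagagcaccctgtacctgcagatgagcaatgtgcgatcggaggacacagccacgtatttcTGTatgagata
Igkv14-126: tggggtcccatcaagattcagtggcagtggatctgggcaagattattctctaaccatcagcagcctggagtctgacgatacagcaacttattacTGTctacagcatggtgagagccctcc
The printed stretches lie at chr6:68121708-68121827 on the plus strand for Igkv1-117 and at chr12:114788372-114788491 on the minus strand for Ighv1-26. Ighv6-6 lies at chr12:114434788-114434907 on the minus strand and Igkv14-100 at chr6:68519358-68519477 on the plus strand. Ighv8-12 at chr12:115647945-115648064 and Igkv6-23 at chr6:70260409-70260528 are on the minus strand, as are Ighv1-22 at chr12:114746273-114746392 and Igkv6-15 at chr6:70406469-70406588. Ighv11-2 lies at chr12:114048241-114048360 on the minus strand and Igkv14-126 at chr6:67896523-67896642 on the plus strand. After the codon, 23 bases followed in each of the 5 printed kappa exons and 6 to 10 bases in the 5 heavy chain exons. The motif TANTNNTGT or TANTNNTGC, which holds this codon after the tyrosine that precedes it by a residue, was searched on the sense strand in the last 40 bases. It was present in 97.5% of the 197 members annotated as functional V genes and in 82.8% of the 29 members annotated as pseudogenes, against 95.8% of 214 functional V genes and 59.7% of 129 V pseudogenes of the whole annotation. Closely related exons limit how surely a read is assigned. The nearest other V exon was at least 97% identical for 13 of 110 Igkv members, which held 10.3% of the cells called for an Igkv gene, and for 25 of 116 Ighv members, which held 31.1% of the cells called for an Ighv gene. Ighv1-26 and Ighv1-22 were 96.4% identical, Igkv1-117 and Igkv1-110 96.8%, and Igkv6-23 and Igkv6-15 94.6%. Counts of the most similar members, such as Ighv1-62-2 and Ighv1-71 with 100% identity, are therefore uncertain.

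The values are counts of unique molecular identifiers (UMIs), of which each stands for 1 captured RNA molecule. The clusters held 4358 B cells of 20266 cells, with 185 to 1098 B cells per library and medians of 573 to 994 UMIs per B cell in Aachen, 2736 to 2876 in Bonn and 2397 to 2517 in Hamburg. All 9 B cell markers used, among them Ms4a1 and Pax5, were above 0 in the B cells of each of the 9 libraries. Every V gene was listed at 0 in all Aachen cells, as were the constant genes Igkc, Ighm, Ighd, Igha and Iglc2, whereas the receptor partner Cd79a had 2307 UMIs there and the antibody joining chain Jchain 748. Because 4731 columns with counts in both other facilities were at 0 in Aachen, including Trac, Trbc2 and the housekeeping gene Rack1, the Aachen zeros were not read as levels, and V gene usage was described in the 6 libraries of Bonn and Hamburg with 3277 B cells. The Bonn counts were whole numbers, whereas 0.118% of the nonzero Hamburg values were whole, so the Hamburg values are estimated counts. Counts of V genes came from 190 members in Bonn B cells and 222 in Hamburg B cells, with 186 in both.

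Kappa V transcripts were among the abundant RNAs of the kidney B cells. Igkv genes held 126.8, 96.1 and 124.7 of 10000 UMIs in Bonn cortex, OM and IM, and 113.7, 96.7 and 94.8 in Hamburg. Ighv genes held 30.5, 25.1 and 29.1 in Bonn and 31.95, 25.3 and 24.6 in Hamburg, so that 3.56 to 4.28 Igkv UMIs were counted per Ighv UMI. The Bonn cortex and IM libraries were highest for Igkv, and both cortex libraries were highest for Ighv. Of the B cells, 88.1% in Bonn OM and 95.4 to 97.6% in the other libraries had an Igkv UMI. Members such as Igkv17-127 were listed at 0 in Bonn OM, and whether those zeros are levels was not tested. The mean of OM and IM minus cortex was -17.2 Igkv UMIs per 10000 (exact permutation test within facilities, two-sided, p = 0.333, adjusted p = 0.556) and was negative in both facilities. For Ighv it was -5.22 (exact permutation test, p = 0.111, adjusted p = 0.444), again with the same sign in both. With 9 arrangements of 6 libraries the smallest p that this test can give is 0.111, and adjustment was over the 4 single values tested. These differences were smaller without the 2 B cells of over 300 V UMIs, both of Hamburg cortex, with -6.88 for Igkv (exact permutation test, p = 0.778) and -1.46 for Ighv (exact permutation test, p = 0.667). The Hamburg cortex values were then 93.1 and 24.4, no higher than in Hamburg OM. Igkc, the kappa constant gene, held 13.9 to 18.4 and Ighm, the heavy chain of IgM, 9.88 to 12.01 of 10000 UMIs across the 6 libraries.

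A V gene could be assigned to most B cells. A cell was called for the gene of a locus with the most UMIs when these were at least 2 and not tied. Igkv calls covered 85.4% of B cells in Bonn OM and 87.4 to 96.5% in the other libraries, Ighv calls covered 79.5 to 93.1%, and both were called in 69.7% (Bonn OM) to 89.8% (Bonn cortex). The called Igkv gene had a median of 26 to 31 UMIs in the Bonn libraries and 19 to 20 in the Hamburg libraries, and the called Ighv gene 7 and 5 to 6. Only 12 of 3277 B cells had no V UMI at all, with 4 in Bonn OM and 2, 4 and 2 in the Hamburg libraries, and none in Bonn cortex or IM. After thinning each cell to 500 UMIs, 83.0% of the Bonn OM cells had an Igkv UMI, against 93.3 to 94.3% in the other Bonn libraries and 88.2 to 89.8% in Hamburg. Bonn OM thus stayed lowest at equal depth. Of the 22 Bonn OM B cells without an Igkv UMI, 3 had 5 or more UMIs of lambda V genes (Iglv), against 22 of 26 such cells in Bonn cortex and 11 of 16 in Bonn IM. Cells with more Iglv than Igkv UMIs made up 3.16 to 7.21% of the cells with at least 5 light chain V UMIs.

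Within a cell, 1 gene of each locus predominated. Over cells with at least 5 Igkv UMIs, the leading Igkv gene held a median of 100% of them in the 3 Bonn libraries and in Hamburg cortex, and 96.8 and 97.4% in Hamburg OM and IM. The median for Ighv was 100% in all 6 libraries. A second Igkv gene with over 25% of the UMIs of the leading Igkv gene was nevertheless present in 540 of 2916 cells (18.5%). By the same rule a second Ighv gene was present in 249 of 2037 (12.2%). The share with a second Igkv gene was 8.44% in Bonn OM and 17.7 to 19.6% in the other libraries. Members listed at 0 in Bonn OM could not be seen there as a second gene. In Bonn, 28.2% of the cells with a second Igkv gene also had a second Ighv gene, against 8.34% of those with 1 Igkv gene, and their median depth was 3125 UMIs against 2841. In Hamburg the corresponding values were 17.7 and 11.2%, at 2682 and 2707 UMIs. In Bonn OM (0 of 8 cells against 6.02%) and Hamburg IM (6.98 against 10.5%) the order was the other way. Cells captured together also show genes of each other, and the part of such doublets in these shares was not tested.

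Usage was spread over many genes with a few leading ones. At least 1 cell was called for 92 Igkv and 95 Ighv genes, and at least 10 cells for 64 and 61. The 12 leading Igkv genes together held 50.2% and the 12 leading Ighv genes 41.2% of the UMIs of their locus, averaged over the 6 libraries. Members annotated as pseudogenes held 0.314% of Igkv and 0.525% of Ighv UMIs and were the called gene in 4 cells each.

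**Figure D1:**
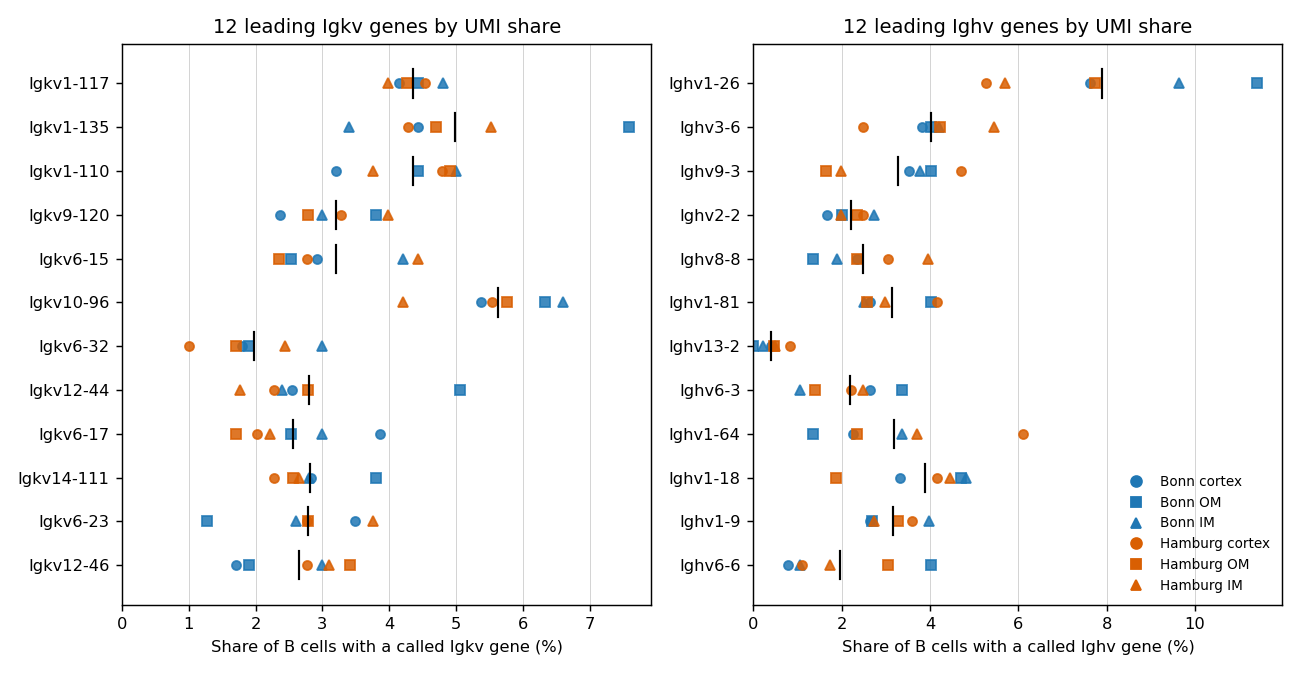
Share of the called cells that use each of the 12 leading Igkv genes and the 12 leading Ighv genes, on a linear axis in percent, with 1 point per Bonn or Hamburg library and a bar at the mean of the 6 libraries. Igkv10-96 and Ighv1-26 stand at the top of their loci by cells, with means of 5.64 and 7.89%, and Igkv6-32 and Ighv13-2 hold few cells for their rank by UMIs.

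Igkv1-117 had the highest share of Igkv UMIs, 6.20% ± 0.69 (SD, n = 6 libraries, range 5.28 to 6.89%). Called cells gave it 4.15, 4.43 and 4.80% in Bonn cortex, OM and IM and 4.53, 4.27 and 3.98% in Hamburg. These shares of cells lay close together. Its level was 716, 525 and 747 CPM (UMIs per 1000000 of B cells, scaled by TMM) in Bonn and 699, 455 and 457 in Hamburg, so that both OM libraries lay below both cortex libraries. Igkv1-135 followed with 5.94% ± 1.36 and Igkv1-110 with 5.38% ± 0.99, all of the Igkv1 family. The order of these 3 is not resolved, since they differ by less than their spread over libraries. Igkv9-120 held 4.59% ± 1.84, Igkv6-15 4.46% ± 1.08 and Igkv10-96 4.36% ± 0.41. By cells Igkv10-96 led the locus, with 168 of 3035 called cells and a mean of 5.64% ± 0.84. Igkv6-32 had 4.17% ± 4.47, an SD above its mean, because 43.7% of its B cell UMIs lay in 1 cell. Igkv12-44 (3.84% ± 2.5), Igkv6-17 (3.005% ± 1.24), Igkv14-111 (2.91% ± 1.10), Igkv6-23 (2.72% ± 0.64) and Igkv12-46 (2.67% ± 0.999) completed the 12, and no neighbours among them differed beyond their spread.

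Among heavy chain genes, Ighv1-26 stood first with 5.18% ± 2.28 of the Ighv UMIs (SD, n = 6 libraries). It was called in 216 of 2840 cells, with 7.63, 11.4 and 9.64% of the called cells in Bonn cortex, OM and IM and 5.26, 7.73 and 5.69% in Hamburg. Its share was higher in OM than in cortex in both facilities, and the ranges of the facilities overlapped only in that the Hamburg OM value lay above that of Bonn cortex. Ighv3-6 (4.62% ± 1.58), Ighv9-3 (4.01% ± 0.91), Ighv2-2 (3.79% ± 0.93), Ighv8-8 (3.52% ± 1.23) and Ighv1-81 (3.47% ± 1.54) came next. Ighv13-2 had 3.36% ± 6.96 with 12 called cells, and 80.0% of its UMIs were in 1 cell. Ighv6-3 (2.82% ± 0.83), Ighv1-64 (2.72% ± 1.16), Ighv1-18 (2.64% ± 1.09), Ighv1-9 (2.61% ± 0.70) and Ighv6-6 (2.45% ± 2.28) followed. By cells the order differed, with Ighv3-6 called in 114 cells, Ighv1-18 in 105 and Ighv6-6 in 43.

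V genes are grouped into families by sequence. Ighv1, the largest heavy chain family, accounted for 62.2% ± 2.0 of the called cells (SD, n = 6) with 61 members, and its share ran from 59.7 to 65.6% in the 6 libraries. Ighv5 had 6.74% ± 1.45, Ighv2 5.35% ± 0.67 and Ighv3 5.05% ± 0.79. The kappa families were more even, with Igkv1 at 15.3% ± 1.7, Igkv6 at 13.4% ± 1.7 and Igkv4 at 12.5% ± 1.7. The Igkv4 family had 29 members and the Igkv1 family 10, so that Igkv1 genes were used more often per gene. When the distance to the J genes was cut into 3 equal stretches, the Igkv stretches from near to far held 44, 36 and 30 members and 44.0, 16.7 and 39.2% of the UMIs. The middle Igkv stretch, from 1056 to 2111 kb, was thus low in UMIs for its 36 members, whereas its share of called cells was 20.9 to 28.1% in the 6 libraries. The Ighv stretches held 37, 42 and 37 members and 27.7, 39.8 and 32.5% of the UMIs, with most UMIs in the stretch of most members. These values are given as a description.

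By cells, the profiles of usage were more alike across libraries than by UMIs. Over Igkv genes, Pearson's r between the cell shares of 2 libraries was 0.704 to 0.909 within a facility and 0.685 to 0.894 between facilities. For Ighv genes it was 0.752 to 0.910 and 0.665 to 0.892. Between UMI shares r was 0.662 to 0.949 and 0.499 to 0.898 for Igkv, and 0.286 to 0.859 and 0.198 to 0.874 for Ighv. These are correlations across genes, which share a reference, a scale and the sampling of few cells per gene and are not independent replicates.

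The diversity of usage was given as the effective number of genes, which is the number of equally used genes with the same Shannon entropy, after every library was thinned to the same number of called cells (158 for Igkv and 149 for Ighv, mean of 200 draws). For Igkv it was 44.1, 31.0 and 41.2 in Bonn cortex, OM and IM, and 45.8, 46.4 and 43.4 in Hamburg. For Ighv it was 43.2, 30.6 and 37.9 in Bonn and 42.7, 45.2 and 42.0 in Hamburg. Bonn OM, the library with the fewest B cells (185), stood below the 5 others for both loci, and Hamburg OM was the highest of its facility. Members listed at 0 in Bonn OM, such as Igkv17-127 and Ighv1-82, could not be called there. Because it was not tested whether those zeros are levels, no narrower usage is read from the Bonn OM values. The medulla minus cortex difference was -4.43 for Igkv (exact permutation test, p = 0.556, adjusted p = 0.556) and -4.01 for Ighv (exact permutation test, p = 0.444, adjusted p = 0.556). For Ighv the sign differed between the facilities, with -8.92 in Bonn and 0.90 in Hamburg.

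**Figure D2:**
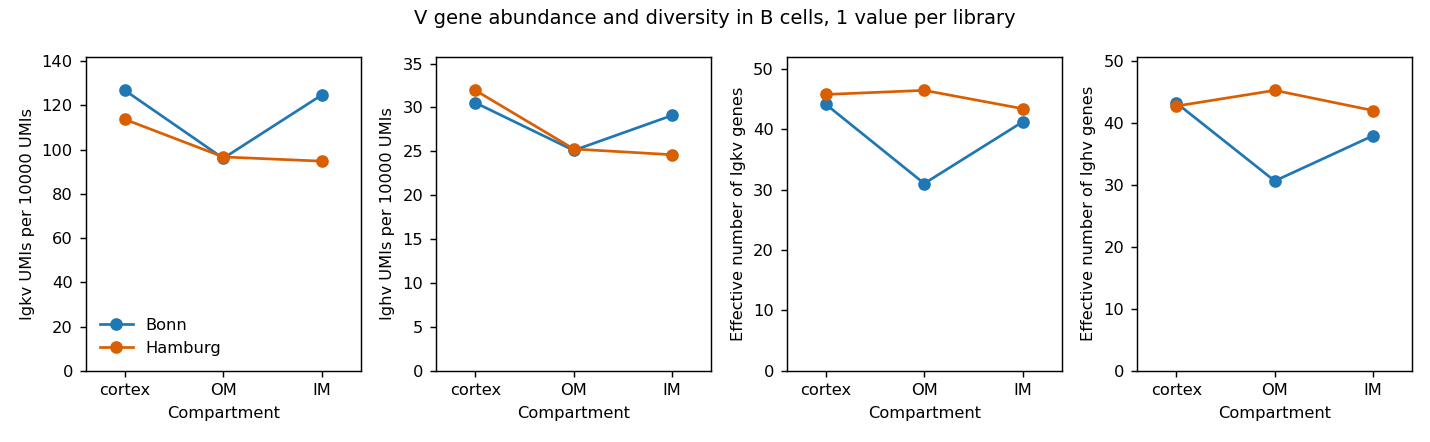
Igkv and Ighv UMIs per 10000 UMIs of B cells and the effective number of Igkv and Ighv genes, by compartment on the x axis, with 1 point per library and a line joining the 3 libraries of a facility. Within Bonn the OM point is the lowest in all 4 panels, with effective numbers of 31.0 and 30.6, whereas the Hamburg effective numbers lie between 42.0 and 46.4.

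The comparison of compartments asked whether single V genes were used more in the medulla or in the cortex. Few were. Of the 226 members, 137 passed the filter on low counts, and 2 differed between medulla and cortex, both lower in the medulla, by edgeR's quasi-likelihood test with Benjamini-Hochberg adjustment over all genes. Of all 8509 genes tested, 0.0353% passed in this contrast, 0.0118% higher and 0.0235% lower in the medulla. OM against cortex gave 4 members, 1 higher and 3 lower, where 0.0470% of all genes passed, 0.0118% higher and 0.0353% lower. IM against cortex gave 2, both lower, against a background of 0.0353% with 0.0118% higher and 0.0235% lower. OM against IM gave 2, 1 in each direction, against 0.0235% with 0.0118% in each direction. V genes were all 4 of the genes called in OM against cortex, both of those in OM against IM, and 2 of the 3 in each of the other contrasts. At an unadjusted p under 0.05 there were 49, 49, 29 and 41 members in the 4 contrasts, and 3.24, 4.25, 2.07 and 3.83% of all genes. DESeq2 called 0, 1, 0 and 1 members, with 0.00, 0.0118, 0.00 and 0.0235% of all genes. The median log2 fold change of the members tested was -0.19 in the medulla, -0.32 in OM and -0.04 in IM against cortex and -0.09 in OM against IM, where that of all genes was 0.00, 0.01, 0.01 and 0.00. With 1 of the 6 libraries left out these medians ranged from -1.07 to 0.12, -1.46 to 0.05, -0.21 to 0.21 and -1.11 to 0.04. Without Bonn cortex the medulla, OM and IM medians turned to 0.12, 0.05 and 0.21, without Bonn OM the OM median turned to 0.03 and that of OM against IM to 0.04, and without Hamburg IM the IM median was 0.01. The lowest values were those without Hamburg OM, or without Bonn IM for IM. The sign of these medians thus rests on single libraries. Members listed at 0 in Bonn OM, such as Igkv17-127, entered the contrasts with OM as 0 there. Whether those zeros are levels was not tested. The Aachen libraries, which list the members at 0, were in this fit, and without them 5, 6, 2 and 2 of 151 members were called, against 0.0703, 0.0703, 0.0351 and 0.0351% of all genes. Members whose transcripts lie in a few cells vary with each such cell, and the count of called genes depended on which library was left out, as given in the closing section. Fewer cells that use a gene and less RNA per cell cannot be told apart in these sums.

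Ighv6-6 rose in OM. It had 31.7, 142 and 32.1 CPM in Bonn cortex, OM and IM, and 21.3, 80.0 and 28.9 in Hamburg. The OM library of each facility was the highest, and both OM libraries lay above all 4 others. The log2 fold change of OM against cortex was 2.02 ± 0.22 (SE, edgeR, adjusted p = 0.00154) and that of OM against IM 1.83 ± 0.22 (edgeR, adjusted p = 0.00589). DESeq2 gave 2.03 (adjusted p = 1.68e-05) and 1.81 (adjusted p = 0.000852). It was called in 8, 6 and 5 cells of Bonn cortex, OM and IM and in 4, 13 and 7 of Hamburg, which is 0.783, 4.03 and 1.05% and 1.11, 3.04 and 1.73% of the called cells. No single cell held more than 7.43% of its UMIs. With each cell counted once, the log2 fold change of OM against cortex was 1.82 (edgeR, adjusted p = 0.390).

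Igkv14-100 was lower in OM as listed. It had 81.6, 0 and 135 CPM in Bonn cortex, OM and IM, and 91.5, 4.91 and 91.4 in Hamburg, so that both OM libraries lay below all 4 others. Whether the Bonn OM value of 0 is a level was not tested, and the fit took it as 0. No tested member had a level between 0 and 9.78 CPM in Bonn OM. It fell by 4.57 on the log2 scale against cortex (SE 0.44, edgeR, adjusted p = 0.00106) and by 4.98 against IM (SE 0.43, edgeR, adjusted p = 0.000268). The medulla contrast, which averages OM with IM, fell by 2.08 (SE 0.29, edgeR, adjusted p = 0.0230), while IM alone had a log2 fold change of 0.41 (SE 0.22, edgeR, adjusted p = 0.9999). The cells called for it numbered 8, 0 and 7 in Bonn and 4, 2 and 3 in Hamburg, and under DESeq2 the fall against cortex did not pass (adjusted p = 0.778). With each cell counted once the log2 fold change of OM against cortex was -1.38 (edgeR, adjusted p = 0.940). Ighv2-5, with 24.8, 0 and 13.4 CPM in Bonn and 38.6, 6.31 and 31.98 in Hamburg, was likewise lowest in both OM libraries and fell by 3.08 in OM against cortex (SE 0.48, edgeR, adjusted p = 0.0441). Ighv2-5 was called in 15 cells, and its Bonn OM value of 0 carries the same limit. Its call was lost in 10 of 16 alternatives, among them DESeq2 (adjusted p = 0.0768), RLE size factors (edgeR, adjusted p = 0.0513), B_cell_1 only (-2.16, adjusted p = 0.935) and the fits without Bonn cortex (adjusted p = 0.100), Bonn IM (0.124), Hamburg cortex (0.111) or Hamburg IM (0.124). All 3 genes rest on 15 to 43 called cells.

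Ighv13-2 showed how 1 cell can set a value. Its levels were 13.6, 0 and 9.08 CPM in Bonn and 511, 15.4 and 22.8 in Hamburg cortex, OM and IM. Only the Hamburg cortex library was high. It fell by 4.18 in the medulla (SE 0.43, edgeR, adjusted p = 0.00207), by 4.85 in OM (SE 0.60, adjusted p = 0.00567) and by 3.51 in IM (SE 0.52, adjusted p = 0.0405). Without the 2 B cells of over 300 V UMIs the medulla difference was -0.85 (edgeR, adjusted p = 1), and within B_cell_1 it was 0.38 (edgeR, adjusted p = 0.9999), with the sign turned. Igkv9-123 was listed at 0 in both IM libraries and had 22.7 and 0 CPM in Bonn cortex and OM and 32.3 and 24.5 in Hamburg. If these zeros are levels, then against 3 UMIs summed over the IM libraries it was at least 26.5-fold lower in IM than in cortex (edgeR, adjusted p = 0.0405). This was not tested, and no tested member had a level between 0 and 9.08 CPM in Bonn IM. Igkv9-123 had 4 called cells in all. The IM calls of Ighv13-2 and Igkv9-123 did not pass without the Aachen libraries (edgeR, adjusted p = 0.0571 for both).

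**Figure D3:**
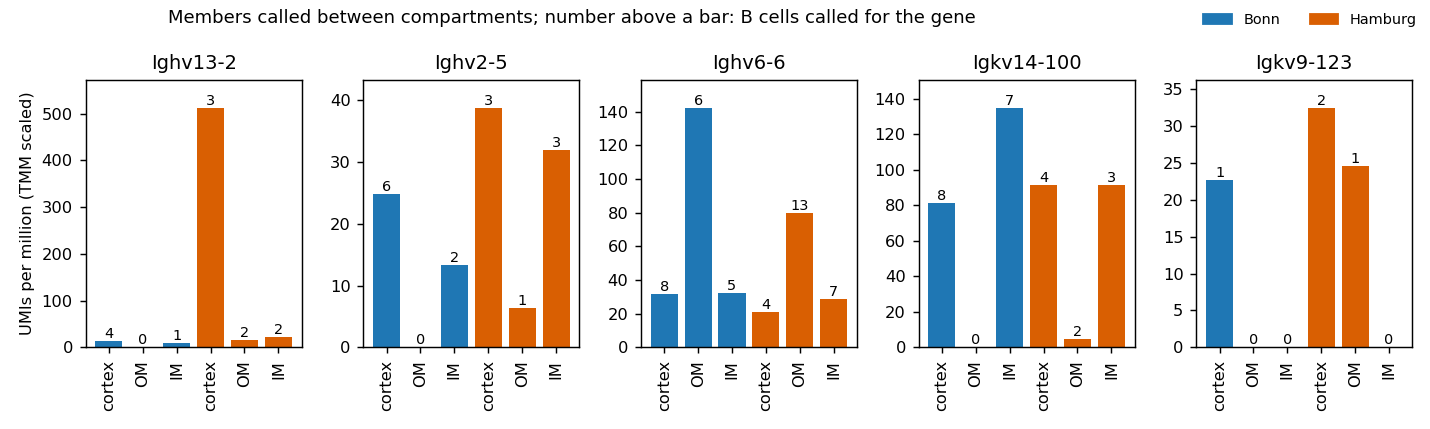
Level of the 5 members that passed the test in a compartment contrast, in CPM of the B cells on the y axis, by compartment, with 1 bar per Bonn or Hamburg library and the number of B cells called for the gene above it. Ighv6-6 is highest and Igkv14-100 lowest in OM at both facilities, and Ighv13-2 is high in Hamburg cortex alone with 511 CPM.

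Summed by family, 2 of 29 families were lower in the medulla than in cortex (background 0.0595%). Ighv13 fell by 4.28 (SE 0.31, edgeR, adjusted p = 6.74e-10), the family of Ighv13-2, and Igkv19 fell by 0.63 (SE 0.12, edgeR, adjusted p = 0.0448). In OM against cortex (background 0.131%) 4 families were lower: Ighv13 fell by 4.91 (edgeR, adjusted p = 5.45e-08), Ighv9 by 0.84 (adjusted p = 0.0325), Igkv6 by 0.74 (adjusted p = 0.0368) and Igkv8 by 0.99 (adjusted p = 0.0349). All 4 sums include genes listed at 0 in Bonn OM, among them Ighv13-2, Ighv9-1, Igkv6-13 and Igkv8-19. The fit took these zeros as levels, which was not tested. At Hamburg, Igkv8 had 919 CPM in cortex and 620 in OM, and Ighv9 had 160 and 95.6. In IM against cortex (background 0.0238%) 1 was lower, Ighv13 (fell by 3.65, edgeR, adjusted p = 6.60e-07). Without the 2 V-rich B cells of Hamburg cortex, 1, 2 and 0 families were called in these 3 contrasts. Ighv13 then had -0.84 in the medulla (edgeR, adjusted p = 0.9998), and Igkv6 had -0.17 in OM (adjusted p = 0.99995), with 1081 CPM in Hamburg cortex against 1176 in OM, where the full sums gave 2371 and 1175. Ighv6, the family of Ighv6-6, was higher in OM than in IM (background 0.0476%) by 1.02 (SE 0.19, edgeR, adjusted p = 0.0186). In the same contrasts no other gene of the receptor that was tested here passed: 0 of 7 constant genes, 0 of 9 receptor partners such as Cd79a and Cd22, 0 of 3 lambda V genes and 0 of 10 transcription factors of V promoters such as Pou2f2 and Pou2af1. Among markers of other cells, 4 of 5 T cell markers tested were lower in OM at an unadjusted p under 0.05 with none called, and 1 of 3 kidney epithelium markers was called in the medulla. The 8 T cell markers summed to 0.230 and 0.537 UMIs per 10000 in the OM libraries of Bonn and Hamburg and to 0.568 to 1.98 in their cortex and IM libraries. The 8 kidney epithelium markers summed to 3.51 in Bonn IM and 0.223 to 0.652 in the other 5 libraries. Their part in the V gene differences was not tested.

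More members differed between facilities. Between Hamburg and Bonn, 44 of 151 members passed edgeR's test in 6 libraries, 13 higher and 31 lower in Hamburg, where 26.5% of all genes passed, 15.3% higher and 11.3% lower. The members' share in both directions together, 29.1%, stands near that background. Their directions differ from it. More of the called members were lower than higher in Hamburg, whereas of all genes called 1304 were higher and 962 lower. This difference in direction was not tested. Ighv1-26 had a log2 fold change of -0.99 in Hamburg against Bonn (SE 0.12, edgeR, adjusted p = 0.000110), and Igkv6-17 had -1.24 (SE 0.16, edgeR, adjusted p = 0.000203). The member with the lowest adjusted p, named after its values were seen, was Ighv1-54 with -2.85 (SE 0.28, edgeR, adjusted p = 2.18e-05); 9, 5 and 5 cells were called for it in Bonn and 1, 2 and 1 in Hamburg. The test over all 3 facilities called 110 of 137 members (background 49.1%) and is void as a statement on usage, since Aachen lists them at 0. The highest ratios of mean share between facilities were those of Ighv11-2 (38.2), Ighv13-2 (22.2) and Igkv14-126 (12.7), all higher in Hamburg. In Ighv11-2 the Hamburg share was 8.18% in cortex and at most 0.17% in the other 2 libraries, and each of the 3 ratios rested on a V-rich Hamburg cortex cell. Members found at 1 facility were rare ones. The 36 members with counts in Hamburg B cells and 0 in every Bonn cell were called in 32 cells, of which Ighv1-84 had 7, and the 4 members of Bonn alone were called in none. The whole table had the same order, with counts in 19174 gene columns in Hamburg and 16465 in Bonn, so no difference in usage is read from these members.

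Pairs of a called Ighv with a called Igkv gene were diverse. Both were called in 2666 cells with 1624 different pairs, of which 1049 (64.6%) were seen in 1 cell and 57 in 5 or more. Ighv1-50 with Igkv9-120 was the most frequent, with 11 cells spread as 2, 1 and 4 in Bonn cortex, OM and IM and 1, 2 and 1 in Hamburg, where separate use of the 2 genes would give 1.78. Ighv1-82 with Igkv6-23 had 10 cells against 2.71, of which 5 were in Bonn cortex. Ighv1-26 had 10 cells with Igkv1-117 against 9.26, 10 with Igkv6-17 against 5.97, and 9 with Igkv12-46 against 5.05, 7 of them in Bonn IM. In 1 library 5 cells also shared Ighv1-80 with Igkv10-96 and Ighv1-82 with Igkv6-17. No pair was in more than 7 cells of a library, and 332 pairs were found at both facilities. Because joins were not read, a shared pair does not show a shared clone.

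The genes known from B-1a cells that bind phosphatidylcholine, a B cell type of the body cavities with restricted receptors, were rare. Ighv11-2 was the called gene in 2 cells, Ighv12-3 in 3, Igkv14-126 in 11 and Igkv4-91 in 12. The pair Ighv11-2 with Igkv14-126 was seen in 1 Hamburg cortex cell of cluster B_cell_1. It had 5631 UMIs, of which 850 were Igkv, 298 Ighv, 50.9 Ighm and 84.7 Jchain. Ighv12-3 with Igkv4-91 was seen in 1 Bonn cortex cell of B_cell_1, with 37 Igkv and 25 Ighv UMIs of 4183 and no Jchain UMI. The other cells called for these heavy chain genes paired them with common kappa genes such as Igkv10-96 and Igkv1-135.

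The clusters were made from the genes of the same cells, so their differences are a description. Cluster B_cell_1 held 3759 of the B cells, B_cell_2 352 and B_cell_3 247. Igkv UMIs per 10000 were 120.2 in B_cell_1, 152.1 in B_cell_2 and 94.6 in B_cell_3 of Bonn, and 94.0, 192.7 and 55.4 in Hamburg. Ighv UMIs were 27.9, 44.4 and 25.6 in Bonn and 22.7, 62.6 and 35.3 in Hamburg. B_cell_2 was highest for both loci at both facilities, and without its V-rich cell the Hamburg values were 149.1 and 46.6. The same cluster held more Ighm (17.2 against 10.7 UMIs per 10000 of B_cell_1 in Bonn), more Vpreb3 (7.82 against 2.52) and less Ighd (2.69 against 4.90). B_cell_3 of Hamburg had a median of 750 UMIs per cell, and calls covered 63.1% (Igkv) and 57.8% (Ighv) of its cells. Gene use also varied among clusters by cells called. Igkv1-135 had 4.17% of the called cells in B_cell_1 and 8.14% in B_cell_2, and Igkv6-23 had 3.25 and 0.78%. These 2 genes had the widest upward and downward gaps in Igkv between the clusters and rest on 21 and 2 cells of B_cell_2.

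**Figure D4:**
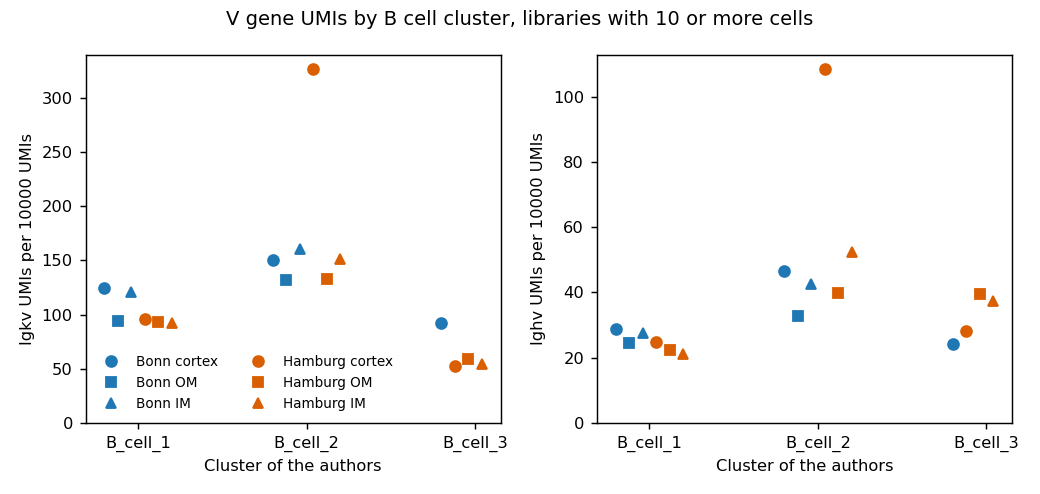
Igkv and Ighv UMIs per 10000 UMIs by B cell cluster on the x axis, with 1 point for each Bonn or Hamburg library that has at least 10 cells of the cluster. B_cell_2 lies above B_cell_1 in every library, and its Hamburg cortex point, the highest of both panels, includes 1 V-rich cell.

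Most V gene UMIs outside the B cell clusters lay in a handful of cells. Cells of other clusters in Bonn and Hamburg held 155622 V UMIs, against 129165 in all B cells, and 143159 of these (92.0%) were in 11 of 9842 cells. Over all cells, 13 had more than 300 V UMIs, a limit set after the values were seen; the lowest of them had 1148 and the next cell 260. The 11 cells outside B clusters, 10 in the cluster Undefined and 1 in Malat+_Macrophage, came from Bonn cortex (2), Bonn IM (3), Hamburg cortex (1), Hamburg OM (3) and Hamburg IM (2). V genes made up 25.9 to 70.0% of their UMIs, up to 21365 V UMIs in 1 cell. A single gene held 96.0 to 100% of the Igkv UMIs and another 98.5 to 100% of the Ighv UMIs of each cell. Of 10 plasma cell markers, among them Jchain, Xbp1 and Mzb1, 7 to 10 were above 0. Of 9 B cell markers 1 to 4 were above 0, and the B cell surface genes Ms4a1 and Cd22 were at 0 in all 11. Jchain had 550 to 2909 UMIs. The antibody class was IgA (Igha) in 8 cells and IgM (Ighm) in 3, by their counts. The deposited label of the Malat+_Macrophage cell goes with 49 UMIs of the macrophage gene C1qa beside 14446 V UMIs.

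**Figure D5:**
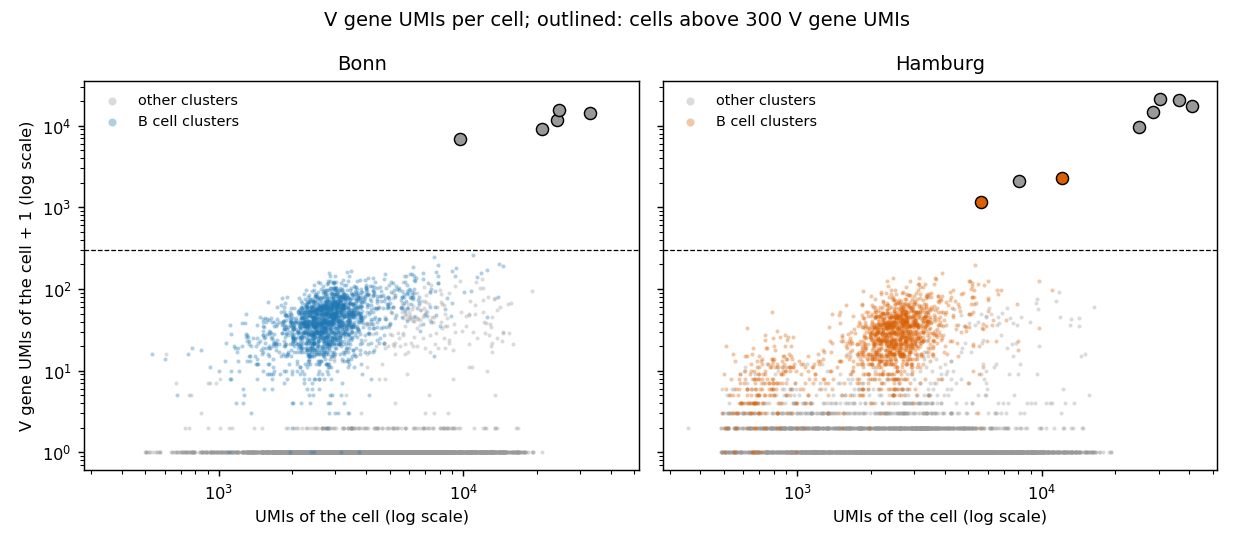
V gene UMIs plus 1 against all UMIs of each cell of Bonn and Hamburg on logarithmic axes, coloured for B cell clusters and grey for other clusters, with a dashed line at 300. The 13 cells above 300 V UMIs stand apart from the rest, with 1148 to 21365 V UMIs.

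Some V genes and pairs of V genes recurred among these cells. The 3 Bonn IM cells all had Ighv8-12 with Igkv6-23 and Ighm as their class, with 8542, 13511 and 5062 UMIs of Igkv6-23 and 3105, 932 and 1719 of Ighv8-12; their barcodes differed by at least 9 bases. The same pair was called in 3 B cells. A Bonn cortex cell and a Hamburg cortex cell both had Ighv1-22 with Igkv6-15 and Igha, with 11504 and 11403 UMIs of Igkv6-15. Igkv5-48 led in 2 Hamburg cells, in OM with Ighv1-31 and in IM with Ighv1-52. The members with the most UMIs outside B cells were accordingly Igkv6-23, Igkv6-15 and Igkv5-48. The Hamburg IM cell with Igkv8-30 and Ighv7-3 had 14582 Igkc UMIs, against 98 to 1132 in the 10 others, and 386 UMIs of Igkv1-135. The 2 B cells above the limit were both of Hamburg cortex: that of Ighv11-2 and Igkv14-126, and 1 of B_cell_2 with Ighv13-2 and Igkv6-32, with 614 and 1648 UMIs of these genes, 84.8 Ighm, 67.5 Jchain and 5.95 Ms4a1.

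Below the limit, V transcripts of the other cells were scarce. T cells held 3.21 Igkv UMIs per 10000 in Bonn and 1.34 in Hamburg, and resident macrophages 3.06 and 0.85, against 123.2 and 101.5 in B cells. At least 1 V UMI was found in 6.60% of Bonn T cells (median 3274 UMIs per cell) and 17.9% of Hamburg T cells (3396), against 99.7% and 99.4% of B cells (2765 and 2452). In Bonn these UMIs were concentrated: 187 cells with 5 to 300 V UMIs, 4.30% of the cells outside B clusters, held 98.0% of them. These cells had a median of 6676 UMIs, against 3745.5 in cells with fewer V UMIs, and 99.5% of them had at least 3 B cell markers, against 1.54%. In Hamburg 162 such cells held 63.7%, at medians of 3463 and 3206 UMIs, and 36.4% had 3 markers. In T cells without any B cell marker UMI the Igkv level was 0.06 in Bonn and 0.96 in Hamburg. The part of doublets and of free RNA in these UMIs was not tested, and no use of V genes by T cells or macrophages is read from them.

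At the edge of the rule, 15 members had at most 1 UMI in all B cells together and 21 were found in 1 B cell only. The lowest was the pseudogene Ighv5-1 with 0.95 UMIs, followed by Igkv3-11 with 0.97. Just outside were 8 columns with 0 in B cells and counts elsewhere, of which Ighv8-10 had 9.98 UMIs, Ighv1-62-1 2 and the others 1 each. The remaining 111 columns were at 0 in every cell.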

How the data were processed

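Per the labels and the methods of the study, the authors mapped the 10x Genomics reads with Cell Ranger to mm10 and filtered (200 to 4000 genes and at most 20% mitochondrial UMIs per cell), integrated and clustered the cells with Seurat. The deposited table holds expected counts of UMIs per gene and cell, not scaled to library size, with the compartment, facility and cluster of each cell. The Hamburg values are not whole, and the methods do not say how they arose. They name no further correction or doublet caller, which leaves unknown whether one was applied. All 9 libraries could be mapped to a compartment, and 0 columns of per-sample values lacked a sample. The members and the gene lists were chosen with earlier results of these data known.

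Counts of B cells (B_cell_1 to B_cell_3) were summed per library and rounded. After filterByExpr and TMM scaling they entered the quasi-likelihood test of edgeR 4.0.16 in R 4.3.3 with the facility as block, adjusted by Benjamini-Hochberg over all genes (threshold 0.05); DESeq2 1.42.0 was an alternative. The facility block rests on the deviations of the libraries from their compartment mean over 1982 genes, which correlate at 0.820 to 0.888 within a facility (9 pairs). Between facilities they correlate at -0.687 to -0.0413 (27 pairs). Because the deviations of a compartment sum to 0 over the facilities, negative values between facilities are built in and are no ground for the block. Single values were compared by an exact two-sided permutation test within Bonn and Hamburg, since Aachen lists the V genes at 0, with scipy 1.17.1, numpy 2.4.6 and pandas 2.3.3 in Python 3.11.15. The edgeR step was checked on simulated data. These were drawn with the same dispersion for all genes, so the check does not cover members whose UMIs lie in a few cells. V exons were taken from GENCODE M21 transcripts and aligned with Biopython 1.88. Depth limits single genes, since 1 cell can carry most of a gene's UMIs, and intervals were not computed for shares of cells. Named are the 12 leading genes of each locus by mean UMI share, members called in a contrast, the V genes of phosphatidylcholine-binding B-1a cells, the 5 leading pairs and pairs in 5 or more cells of 1 library, the 3 members with the highest facility ratio at a mean share of at least 1% and the 3 with most UMIs outside B cells; others are named as chosen after their values were seen. Alternatives covered the block, tool, scaling, filter, cells and libraries; those on single libraries, on cells of over 300 V UMIs and on Hamburg against Bonn were added after the data were seen. Promoters were not analysed here, and 1 gene of the lists of B cell markers and receptor partners is not reported here.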

Additional observations from a re-analysis of the deposited data

Results flagged for a closer look

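Ighv8-10, annotated as a pseudogene on chromosome 12 (mm10), was at 0 in all B cells and is therefore no member, yet 9.98 UMIs of it were counted in 10 cells of other clusters, none with more than 1 UMI. It was the highest of the 8 V gene columns with counts outside the B cell clusters only, and it is listed because this count stands above the 3 UMIs that a count of 0 allows in the same cells. At the rate per cell of the 9842 other cells the 3277 B cells would hold 3.32 UMIs, just above the 3 UMIs that a count of 0 allows. Because the 0 in B cells placed Ighv8-10 in this list, no difference is read from it. The cell with the highest value was a neutrophil of Hamburg IM with 1.43 V UMIs in all.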

How the results depend on the processing

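The counts of called members moved under most alternatives, and the direction of single genes mostly did not. In the order medulla, OM and IM against cortex and OM against IM, the 2, 4, 2 and 2 members became 0 in each without the facility as replicate block (unadjusted p under 0.05 in 4, 4, 3 and 4), 60, 62, 46 and 45 of 226 without the filter (0.523, 0.617, 0.392 and 0.411% of all genes), and 0 in each with the locus sum as library size or with cells in place of UMIs (unadjusted p under 0.05 in 6, 7, 4 and 5 of 125). DESeq2 called 0, 1, 0 and 1 (unadjusted p under 0.05 in 19, 23, 6 and 19). With B_cell_1 only, IM against cortex gave 0 and OM against IM 1; without cells holding macrophage or T cell markers IM against cortex gave 1; and without B cells of over 300 V gene UMIs, medulla and IM against cortex gave 1 each. Leaving out a library gave 5 to 40 members for the medulla, 6 to 50 for OM, 1 to 8 for IM and 1 to 51 for OM against IM: 9, 12, 8 and 11 without Bonn cortex, 18, 20, 8 and 12 without Bonn OM, 6, 7, 4 and 1 without Bonn IM, 6, 8, 7 and 2 without Hamburg cortex, 40, 50, 8 and 51 without Hamburg OM (0.534, 0.696, 0.112 and 0.708% of all genes; at most 0.261% in any contrast with another library left out), and 5, 6, 1 and 4 without Hamburg IM. Without Hamburg OM, Bonn OM was the only OM library with V gene counts, and members such as Igkv17-127 are listed at 0 there. The cause was not tested. The lone library of a compartment is then assumed to vary like the others. Leaving out all of Bonn or of Hamburg leaves no residual degrees of freedom for the V genes, and these fits were not run. In the medulla against cortex 2 of 29 families were called, 4 of 30 without Aachen, 0 without the replicate block, 1 with RLE size factors, with B_cell_1 only or without B cells of over 300 V gene UMIs, 13 of 34 without the filter and 0 with DESeq2 (unadjusted p under 0.05 in 10). The facility test called 110 of 137 members, 167 of 226 without the filter, and 44 of 151 for Hamburg minus Bonn, which changed both the libraries and the contrast. Ighv13-2 turned to 0.38 (medulla) and 0.79 (IM) with B_cell_1 only. The effective number of Ighv genes ranged from -8.92 without Hamburg to 0.90 without Bonn, while the other single values kept their sign in every alternative, none past the threshold. V gene UMIs per 10000 outside B cells, 34.7 on average, were 0.82 without cells holding a B cell marker and 2.64 without the V-rich cells.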
